A study of Mus musculus with 9 samples.

Results

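The cytochrome P450 families 1 to 3 are the drug-metabolizing branch of the P450 enzymes. Genes were taken into the group when their symbol was Cyp followed by 1, 2 or 3, a subfamily letter and a number. This rule found 54 of the 24008 genes counted in liver, in 16 subfamilies. Cyp2c had 15 genes, Cyp2d 9, Cyp3a 7, and Cyp2a, Cyp2b and Cyp2j 4 each, Cyp1a had 2, and the other 9 subfamilies had 1 each. Of the 54 genes, 44 had enough counts to be tested and 10 did not.

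The RNA came from whole livers of male mice with non-alcoholic steatohepatitis (NASH) induced by diet, with 3 mice per group and 1 library per mouse. Flox mice carry loxP-flanked alleles of Irf4, a transcription factor gene, without the Cre recombinase, and their libraries are labelled by the wild-type genotype. F4MKO mice lack Irf4 in skeletal muscle. F4MKO + FSTL1 mice are F4MKO mice whose gastrocnemius muscle received an adeno-associated virus that carries Fstl1, a secreted glycoprotein gene, under a muscle creatine kinase promoter. The paper gives the Flox and F4MKO mice a virus with GFP, which the labels do not name, and all groups were fed the NASH diet. The deletion and the virus therefore act in muscle, and the RNA reported here is from liver.

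P450 enzymes of these families sit in the endoplasmic reticulum and insert 1 atom of oxygen into drugs, pollutants, steroids and fatty acids, with electrons passed on by P450 oxidoreductase. Hepatocytes hold most of the enzyme in the body, and the cells around the central vein hold more than those around the portal tract. Their genes are controlled by receptors that sense foreign chemicals (AHR for Cyp1, CAR and PXR for Cyp2b, Cyp2c and Cyp3a), and in mice several are expressed at different levels in males and females.

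The libraries held 20656976 to 24322984 counts each, of which the P450 genes of the 3 families took from 2.20% to 2.87%. Irf4 had 101 to 132 counts in Flox, 120 to 130 in F4MKO and 10 to 116 in F4MKO + FSTL1 livers, and Fstl1 had 138 to 186, 234 to 456 and 67 to 114 counts, respectively. Neither checks the labels, since the deletion and the virus were in muscle. The summed level of 10 hepatocyte markers ran from 74139 to 106186 CPM (counts per 1000000 after TMM scaling) and was lowest in F4MKO replicate 1. Alb led this sum, with means of 68418, 64702 and 61032 CPM in Flox, F4MKO and F4MKO + FSTL1 livers. In F4MKO relative to Flox livers 1 of the 10 was higher, beside 49.4% of all genes, and 0 were called. In F4MKO + FSTL1 relative to F4MKO livers 8 were higher, beside 51.4% of all genes, and 1 was called higher, beside 3.21%. Markers of some other cell types moved with the groups. The sum of 10 stellate cell markers was 433 to 509 CPM in Flox, 587 to 773 in F4MKO and 279 to 387 in F4MKO + FSTL1 livers, that of 10 macrophage markers was 757 to 1173, 1055 to 1177 and 460 to 690.3, that of 8 cholangiocyte markers was 51.9 to 91.7, 167 to 446 and 37.0 to 55.5, and that of 8 genes of dividing cells was 15.8 to 29.3, 35.0 to 43.2 and 5.82 to 9.56. Spp1 made up most of the cholangiocyte sum, with means of 59.9, 248 and 39.7 CPM in Flox, F4MKO and F4MKO + FSTL1 livers. In F4MKO + FSTL1 relative to F4MKO livers, 10 of 10 stellate cell and 8 of 10 macrophage markers were lower. So were 6 of 6 tested cholangiocyte markers and 8 of 8 dividing cell genes, where 51.4% of all genes were higher. By the test described below, 7, 6, 5 and 8 of these, in this order, were called lower, beside 11.2% of all genes. The sum of 10 endothelial cell markers overlapped between the groups, with 366 to 459, 302 to 376 and 333 to 404 CPM. Of these 10, 7 were higher in F4MKO + FSTL1 than in F4MKO livers and 0 were called, beside 14.4% of all genes. The sum of 8 lymphocyte markers was 11.1 to 11.3, 9.67 to 13.2 and 3.69 to 10.9 CPM. All 7 tested were lower, and 1 was called lower. The part of the marker shifts in the results below was not tested. In whole liver, fewer cells of a type and less RNA per cell cannot be told apart.

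The bases before the transcription start are shown for 5 genes on which the results turn. Cyp2e1 and Cyp3a11 had the highest levels, Cyp2c37 and Cyp2c50 rose in F4MKO + FSTL1 livers, and Cyp2c55 of the same gene cluster fell. Each run is the 250 bases upstream of the RefSeq start on GRCm38.p6 (mm10 coordinates), read 5′ to 3′ on the gene's strand. Capitals mark matches on either strand to any of 8 motifs. These were the basal promoter elements TATAAA, known as the TATA box, and CCAAT. The core of the response element of AHR was searched as GCGTG. The half-site that nuclear receptors bind was searched as AGGTCA. The half-site of HNF1 was searched as GTTAAT, the STAT5 site as TTCNNNGAA and the C/EBP site as TTGCNNAA. The D-box of the clock output factors DBP, TEF and HLF was searched as TTATGTAA. No matches of different motifs overlapped in these runs.
Cyp2e1 (chr7:140763569-140763818): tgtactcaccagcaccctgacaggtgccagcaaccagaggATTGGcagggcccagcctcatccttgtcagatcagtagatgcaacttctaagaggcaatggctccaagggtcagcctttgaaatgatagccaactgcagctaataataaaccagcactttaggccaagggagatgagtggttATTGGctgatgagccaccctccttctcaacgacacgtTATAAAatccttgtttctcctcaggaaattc
Cyp2c37 (chr19:39992174-39992423): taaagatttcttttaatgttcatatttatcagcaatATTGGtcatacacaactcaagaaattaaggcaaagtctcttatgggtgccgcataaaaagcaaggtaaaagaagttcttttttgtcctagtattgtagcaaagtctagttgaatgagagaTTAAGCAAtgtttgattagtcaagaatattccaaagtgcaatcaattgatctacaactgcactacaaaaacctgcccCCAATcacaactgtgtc
Cyp2c50 (chr19:40089429-40089678): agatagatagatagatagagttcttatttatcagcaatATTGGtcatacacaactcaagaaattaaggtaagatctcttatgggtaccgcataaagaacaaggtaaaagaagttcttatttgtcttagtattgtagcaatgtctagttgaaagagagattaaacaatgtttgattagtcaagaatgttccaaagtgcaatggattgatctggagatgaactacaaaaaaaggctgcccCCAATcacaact
Cyp2c55 (chr19:39006769-39007018): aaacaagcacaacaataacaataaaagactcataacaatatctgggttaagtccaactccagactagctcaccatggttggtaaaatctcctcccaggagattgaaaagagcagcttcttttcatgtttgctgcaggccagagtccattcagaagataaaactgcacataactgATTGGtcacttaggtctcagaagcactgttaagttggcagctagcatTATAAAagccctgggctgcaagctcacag
Cyp3a11 (chr5:145879855-145880104): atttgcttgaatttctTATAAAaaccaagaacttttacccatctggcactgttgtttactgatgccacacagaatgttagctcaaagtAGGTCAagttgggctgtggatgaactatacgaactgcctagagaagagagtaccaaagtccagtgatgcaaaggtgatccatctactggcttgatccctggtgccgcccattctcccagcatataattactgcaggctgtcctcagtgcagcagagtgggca

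Cyp2e1, Cyp2c37 and Cyp2c50 lie on the plus strand, as does Cyp2c55, and Cyp3a11 lies on the minus strand. Cyp2c37 and Cyp2c50 shared 215 of 250 bases (86.0%) in a global alignment, and Cyp2c37 and Cyp2c55 shared 140 (56.0%). Mismatches cost nothing in this alignment and no unrelated runs were aligned, so the lower share has no baseline. Cyp2e1 and Cyp2c55 had a TATA box 31 and 29 bases before the start and a CCAAT box 68 and 76 bases before it. Cyp2c37 and Cyp2c50 had no TATAAA in this window and each had 2 CCAAT boxes. Cyp3a11 had an AGGTCA half-site 162 bases before the start and a TATAAA 234 bases before it.

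A run of the same length was found for 46 of the 54 genes, and the shares can be read against 32851 promoters of all genes. TATAAA was found in 23 of the 46 (12.4% of all promoters), CCAAT in 16 (33.8%), AGGTCA in 14 (14.0%) and TTGCNNAA in 12 (9.56%). GCGTG was found in 6 (28.2%) and GTTAAT in 6 (6.43%), and TTCNNNGAA and TTATGTAA in 0 (7.02% and 0.819%). Of the genes with a run that rose with FSTL1, as described below, 5 of 8 had TATAAA, 5 of 8 had CCAAT and 2 of 8 had AGGTCA. Of those that fell, 5 of 9 had TATAAA, 2 of 9 had CCAAT and 3 of 9 had AGGTCA. Those with AGGTCA include Cyp2c39, whose run lies at 39347096 to 39347345 on chromosome 19. The annotation used for lengths starts that gene at 39510862, so this run may not be its promoter. A match describes letters in the window and does not show that a factor binds there.

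Levels of different genes were compared per length, as CPM per kilobase of the longest coding transcript. Cyp2e1, which oxidizes ethanol and acetaminophen, stood at a mean of 4071 CPM per kb in Flox livers and Cyp3a11, the main Cyp3a enzyme of mouse liver, at 3167. They were followed by Cyp2f2, the naphthalene-oxidizing enzyme of periportal hepatocytes (919), and by the Cyp2d genes Cyp2d9 (737), Cyp2d26 (645) and Cyp2d10 (549). Cyp2e1 and Cyp3a11 together made up 53.8% to 63.5% of the summed level per kb of the 53 genes with a known length in each of the 9 libraries.

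The order of the leading pair differed between the groups. The ratio of Cyp2e1 to Cyp3a11 per kb was 1.19, 1.24 and 1.44 in the Flox livers, 0.805, 0.591 and 0.788 in the F4MKO livers, and 4.18, 4.16 and 3.01 in the F4MKO + FSTL1 livers. Cyp3a11 stood above Cyp2e1 in every F4MKO liver and below it in the other 6, and the ranges of the 3 groups did not overlap. This ratio was chosen after the values were seen and is given without a test.

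All 14379 genes with enough counts went into edgeR's quasi-likelihood test. A gene was called where its fold change exceeded 1.5 and its p, adjusted by Benjamini-Hochberg, was below 0.05. The knockout comparison, F4MKO against Flox, asks what the loss of Irf4 in muscle changes in the liver. It called 1 of the 44 P450 genes, which was lower, where 0.271% of all genes were called and 0.0695% were called lower. The FSTL1 comparison, F4MKO + FSTL1 against F4MKO, asks what FSTL1 changes in the knockout. It called 20 of the 44, 11 higher and 9 lower, which is 45.5% of the P450 genes beside 14.4% of all genes (3.21% higher and 11.2% lower). The third comparison, F4MKO + FSTL1 against Flox, called 0 of the 44 by edgeR, beside 0.00695% of all genes, and 7 of 43 by DESeq2, beside 2% of all genes. An unadjusted p under 0.05 was found for 23, 29 and 13 of the 44 in the 3 comparisons, and for 16.9%, 35.3% and 13.4% of all genes.

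With counts scaled by their totals alone, an alternative added after the data were seen, the FSTL1 comparison called 18 of the 44, 7 higher and 11 lower, beside 17.4% of all genes. This scaling moved the median log2 fold change of all genes in that comparison to -0.18.

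The median log2 fold change of the 44 genes was -0.14, 0.24 and 0.11 in the 3 comparisons, and that of all genes was -0.00304, 0.0112 and -0.000378. A log2 fold change above 0 was found for 16, 26 and 25 of the 44, and for 49.4%, 51.4% and 49.9% of all genes. The median size of the log2 fold change, regardless of sign, was 0.43, 0.71 and 0.38 in the P450 genes and 0.17, 0.26 and 0.14 in all genes. The comparisons share libraries, so their values for a gene are not independent.

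**Figure D1:**
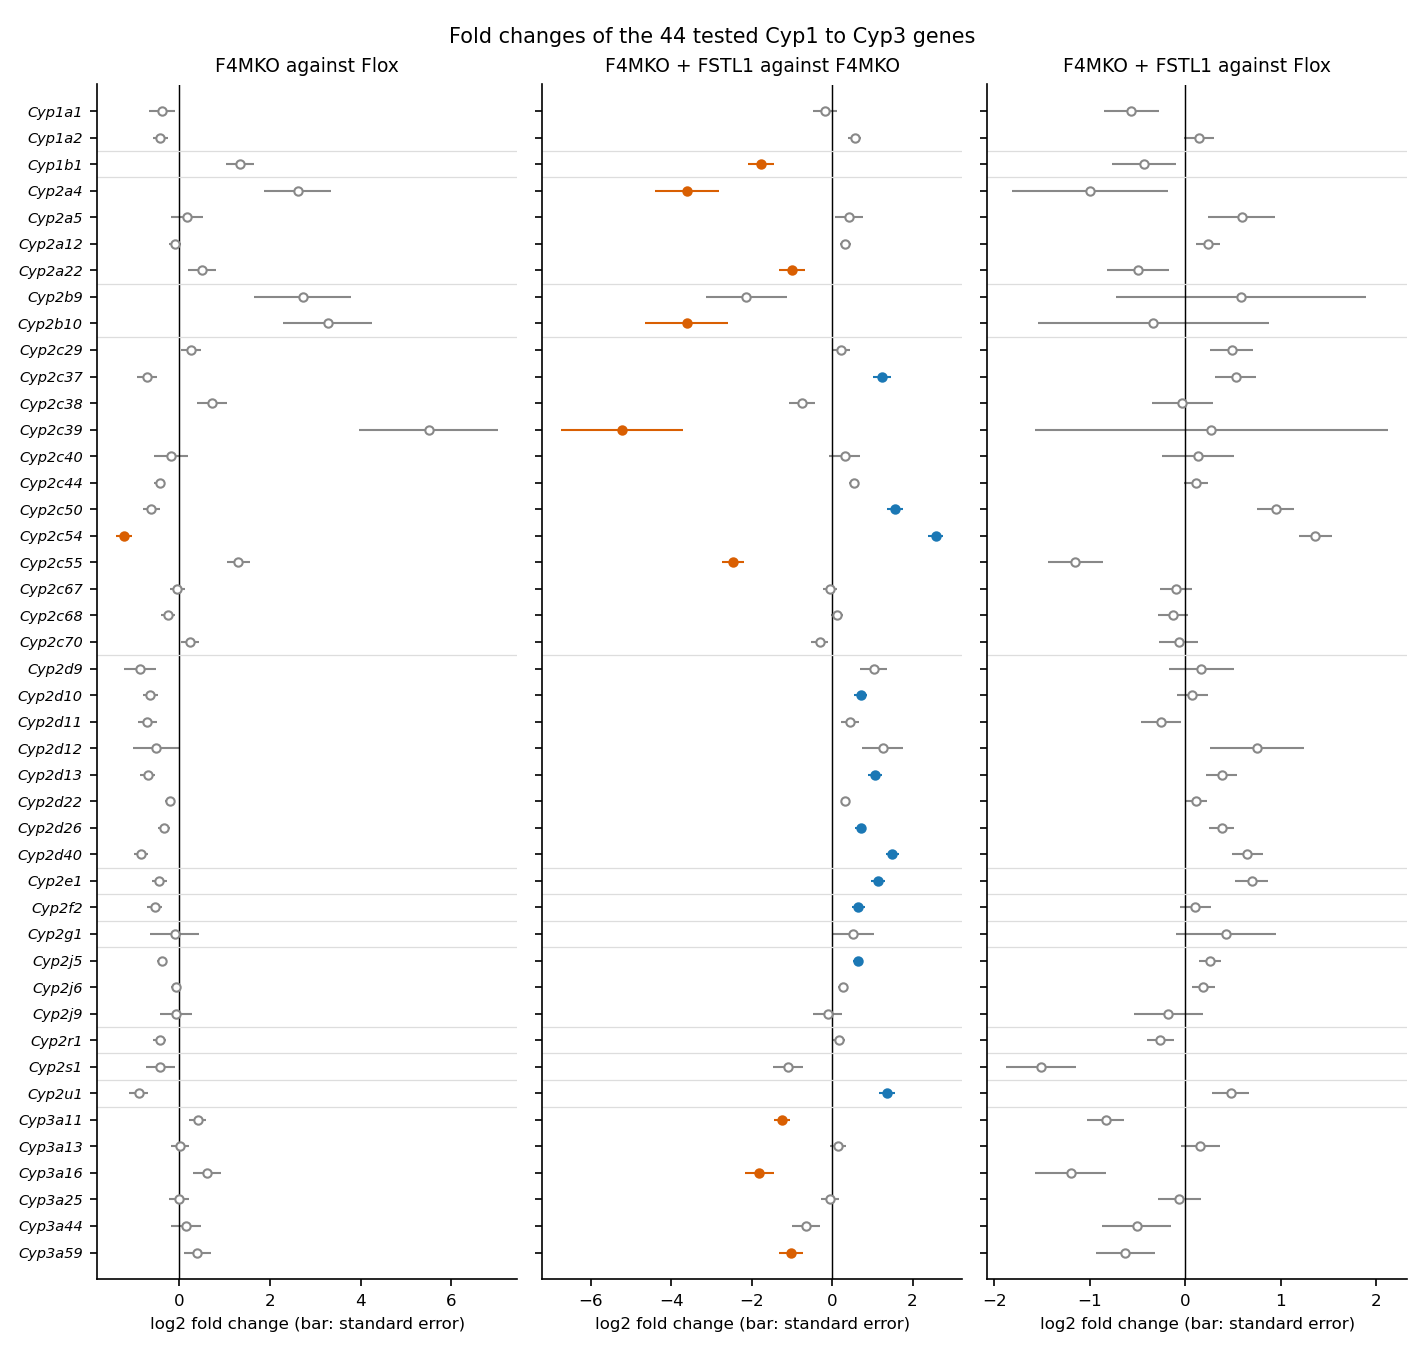
Log2 fold change (x axis, with a different range in each panel) of each of the 44 tested genes, grouped by subfamily, with bars for the standard error. Filled points were called, blue higher and orange lower. The second panel has 11 blue and 9 orange points, the first has 1 orange point at Cyp2c54, and the third has no filled point.

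The genes that rose in the FSTL1 comparison came from 6 subfamilies. They were 3 neighbours of the Cyp2c cluster on chromosome 19 (Cyp2c37, Cyp2c50 and Cyp2c54), 4 of the 8 tested Cyp2d genes, and Cyp2e1, Cyp2f2, Cyp2j5 and Cyp2u1. In all 11 the values of the F4MKO + FSTL1 livers lay above those of the F4MKO livers without overlap, and all 11 were called without F4MKO replicate 2. Groups without overlap were found for 24 of the 44 P450 genes, 17 higher and 7 lower, and for 39% of all genes, 18% higher and 21.1% lower. The same libraries made the calls, so the separation of the called genes is a description.

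Cyp2c54, Cyp2c50 and Cyp2c37 encode epoxygenases and hydroxylases of arachidonic and linoleic acid in liver. The levels of Cyp2c54 were 64.3, 62.4 and 82.8 CPM in Flox, 28.0, 26.7 and 36.0 CPM in F4MKO and 224, 149 and 166 CPM in F4MKO + FSTL1 livers. Each F4MKO + FSTL1 liver held more Cyp2c54 than any Flox liver, and each F4MKO liver held less. The difference between F4MKO + FSTL1 and F4MKO livers was the largest rise of the 11 (log2 fold change 2.57, standard error 0.18, adjusted p = 0.000239), and its adjusted p equalled the smallest of all genes tested. Cyp2c50 reached 286, 260.5 and 270.0 CPM in Flox livers, compared with 174, 138 and 222 CPM in F4MKO and 688, 429 and 459 CPM in F4MKO + FSTL1 livers. The 3 groups stood in the same order, again without overlap (log2 fold change 1.56, standard error 0.20, adjusted p = 0.00135 between F4MKO + FSTL1 and F4MKO livers). For Cyp2c37 the 3 Flox livers gave 83.2, 70.3 and 80.0 CPM, the F4MKO livers 30.2, 56.1 and 56.8 CPM and the F4MKO + FSTL1 livers 126, 86.6 and 124 CPM. The F4MKO values lay below those of both other groups, and the lowest was that of replicate 1 (log2 fold change 1.23, standard error 0.22, adjusted p = 0.00385).

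These 3 genes lie next to each other between 39992424 and 40113950 on chromosome 19 (mm10). Cyp2c50 shared 3.25% of its 150-base windows, the length of 1 read, with Cyp2c37 or Cyp2c54, so that a small part of their reads may have been divided between them. Of the other 9 tested Cyp2c genes, 2 fell and 7 were not called. Cyp2c29, a phenobarbital-inducible epoxygenase, had the highest mean level per kb of the subfamily over all libraries. Cyp2c29 was at 418, 338 and 408 CPM in the Flox livers, 306, 649 and 440.3 CPM in the F4MKO livers and 608, 479 and 542 CPM in the F4MKO + FSTL1 livers. Its F4MKO values surrounded those of the F4MKO + FSTL1 livers, and the log2 fold change was 0.22 (adjusted p = 0.505). Cyp2c67, Cyp2c68 and Cyp2c70, the last a bile acid hydroxylase that forms muricholic acids, had -0.05, 0.13 and -0.31 (adjusted p from 0.309 to 0.854), and under total-count scaling Cyp2c68 had -0.07. Cyp2c44, another epoxygenase, passed the p threshold with a fold change below 1.5 (log2 fold change 0.54, standard error 0.13, adjusted p = 0.0124), and was called without F4MKO replicate 3 (0.62, adjusted p = 0.0129) or F4MKO + FSTL1 replicate 1 (0.60, adjusted p = 0.0195).

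The Cyp2d genes are the mouse relatives of the human debrisoquine hydroxylase and lie in a cluster on chromosome 15. All 8 tested had a positive log2 fold change in the FSTL1 comparison, from 0.32 to 1.49, and a negative one in the knockout comparison, from -0.86 to -0.21. These signs held under total-count scaling, and the comparisons share the F4MKO libraries. The levels of Cyp2d40 were 68.7, 45.4 and 62.0 CPM in Flox, 34.0, 29.2 and 34.9 CPM in F4MKO and 75.1, 105 and 96.3 CPM in F4MKO + FSTL1 livers. All F4MKO + FSTL1 values exceeded all Flox values, which exceeded all F4MKO values (log2 fold change 1.49, standard error 0.16, adjusted p = 0.000829). Cyp2d13 reached 151, 181 and 169 CPM in Flox livers, compared with 103, 118 and 89.7 CPM in F4MKO and 219, 267 and 166 CPM in F4MKO + FSTL1 livers. Cyp2d13 was lowest in the F4MKO livers, and its F4MKO + FSTL1 values overlapped with Flox (log2 fold change 1.07, standard error 0.17, adjusted p = 0.00209). It had no entry under this symbol in the annotation used here, and its length and place are not given.

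Cyp2d10 and Cyp2d26 are the more abundant of the 4. For Cyp2d10 the 3 Flox livers gave 1018, 749 and 947 CPM, the F4MKO livers 518, 529 and 697 CPM and the F4MKO + FSTL1 livers 840.3, 951 and 1070 CPM. The F4MKO values lay below all others, and those of F4MKO + FSTL1 overlapped with Flox (log2 fold change 0.71, standard error 0.16, adjusted p = 0.0105). Cyp2d26 was at 1210, 952 and 1128 CPM in the Flox livers, 768, 940.3 and 909.6 CPM in the F4MKO livers and 1505, 1453 and 1329 CPM in the F4MKO + FSTL1 livers. The F4MKO + FSTL1 livers were the highest (log2 fold change 0.71, standard error 0.13, adjusted p = 0.00427). With counts scaled by their totals alone, both log2 fold changes were 0.52, below the fold threshold. Cyp2d10 shared 6.40% of its windows with Cyp2d9 or Cyp2d11.

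Cyp2d9, a testosterone hydroxylase that is higher in males, was not called (log2 fold change 1.03, standard error 0.34, adjusted p = 0.0541). The levels of Cyp2d9 were 1287, 1180 and 1318 CPM in Flox, 629, 322 and 1128 CPM in F4MKO and 1094, 1419 and 1736 CPM in F4MKO + FSTL1 livers. F4MKO replicate 2 was the lowest, and replicate 3 lay above the lowest F4MKO + FSTL1 liver. Without replicate 3 of F4MKO it was called (log2 fold change 1.57, adjusted p = 0.00508), and without replicate 2 it was not (0.68, adjusted p = 0.0848). It was also called without a filter on low counts (adjusted p = 0.00308). Cyp2d12 reached 1.65, 0.738 and 1.38 CPM in Flox livers, compared with 1.34, 0.377 and 0.878 CPM in F4MKO and 3.41, 0.961 and 1.93 CPM in F4MKO + FSTL1 livers. Cyp2d12 was low and overlapped between all groups (log2 fold change 1.26, standard error 0.51, adjusted p = 0.1), and was called without a filter on low counts (adjusted p = 0.0316). Cyp2d11 and Cyp2d22 had log2 fold changes of 0.44 and 0.32 and were not called.

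Cyp2e1 had the highest level per kb of the 3 families in Flox livers. For Cyp2e1 the 3 Flox livers gave 7200, 7763 and 7426 CPM, the F4MKO livers 4445, 5093 and 7029 CPM and the F4MKO + FSTL1 livers 13510, 11501 and 11342 CPM. Every F4MKO + FSTL1 liver held more than any Flox liver, and every F4MKO liver held less, with F4MKO replicate 3 close to Flox (log2 fold change 1.13, standard error 0.17, adjusted p = 0.00206). Its difference from Flox was not called in either group (log2 fold change -0.43 in F4MKO, adjusted p = 0.238, and 0.70 in F4MKO + FSTL1, adjusted p = 0.125). The difference of F4MKO + FSTL1 from Flox was called by DESeq2 and without a filter on low counts.

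Cyp2f2, Cyp2j5 and Cyp2u1 are each from another subfamily. Cyp2f2 was at 1897, 1652 and 1595 CPM in the Flox livers, 884, 1336 and 1313 CPM in the F4MKO livers and 1776, 2036 and 1717 CPM in the F4MKO + FSTL1 livers. The F4MKO values were the lowest, and those of F4MKO + FSTL1 overlapped with Flox (log2 fold change 0.65, standard error 0.16, adjusted p = 0.0179). The call was lost without F4MKO replicate 1 (log2 fold change 0.47, adjusted p = 0.0399), without F4MKO + FSTL1 replicate 2 (0.57, adjusted p = 0.0761) and under total-count scaling (0.47). The levels of Cyp2j5 were 515, 524 and 522 CPM in Flox, 401, 438 and 362 CPM in F4MKO and 654, 674 and 544 CPM in F4MKO + FSTL1 livers. This arachidonic acid epoxygenase of liver and kidney was higher in every F4MKO + FSTL1 than in every Flox liver (log2 fold change 0.64, standard error 0.12, adjusted p = 0.0043), and fell below the fold threshold without F4MKO replicate 3 (0.57) and under total-count scaling (0.45). Cyp2u1 reached 8.38, 5.82 and 7.59 CPM in Flox livers, compared with 4.17, 3.23 and 4.27 CPM in F4MKO and 9.30, 12.6 and 8.36 CPM in F4MKO + FSTL1 livers. Levels of Cyp2u1, a fatty acid hydroxylase that is also expressed outside the liver, were low, and F4MKO lay below the other groups (log2 fold change 1.37, standard error 0.20, adjusted p = 0.00177).

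**Figure D2:**
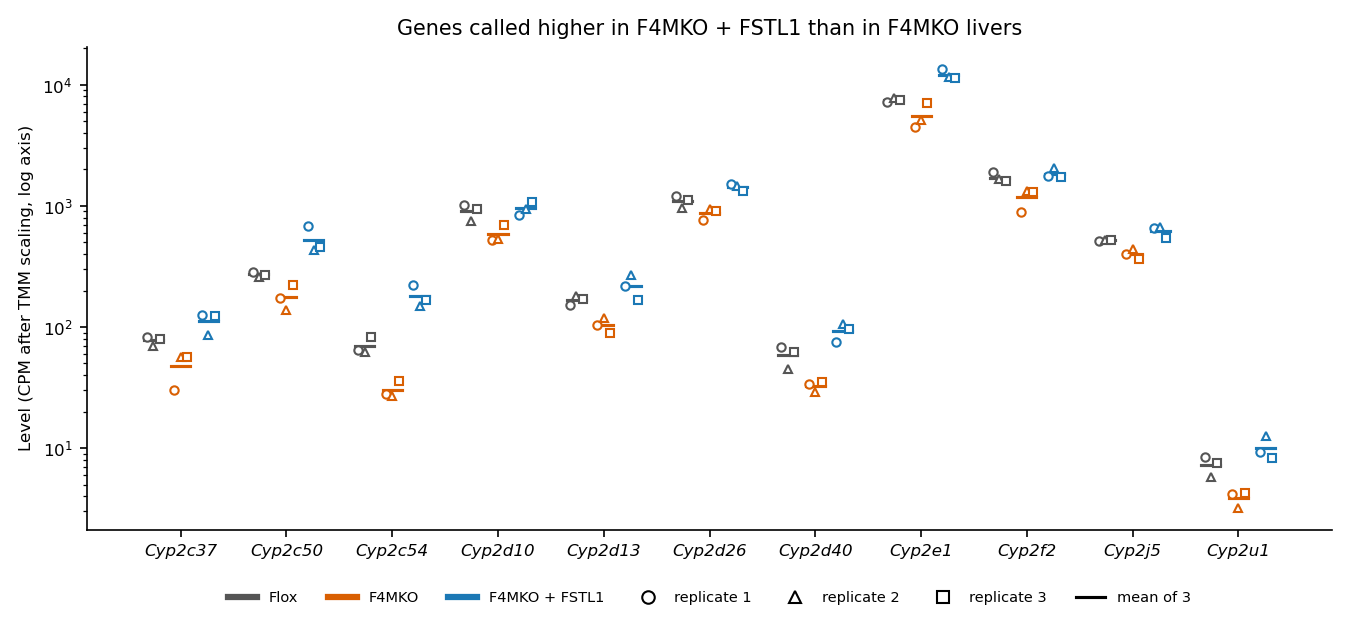
Level in each library (y axis, CPM on a log axis) of the 11 genes that rose in the FSTL1 comparison, with 1 point per mouse and a line at the mean of 3. For each gene the orange F4MKO points lie below the blue F4MKO + FSTL1 points, as for Cyp2c54, with 26.7 to 36.0 CPM against 149 to 224.

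The 9 genes that fell in the FSTL1 comparison were Cyp3a11, Cyp3a16 and Cyp3a59, Cyp2c39 and Cyp2c55, Cyp2a4 and Cyp2a22, Cyp1b1 and Cyp2b10. The groups did not overlap in 6 of the 9. Without F4MKO replicate 2, 5 of the 9 were called.

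Cyp3a11 is the best known PXR target in mouse liver. For Cyp3a11 the 3 Flox livers gave 7711, 7978 and 6584 CPM, the F4MKO livers 7059, 11014 and 11412 CPM and the F4MKO + FSTL1 livers 4134, 3537 and 4816 CPM. The F4MKO + FSTL1 livers were the lowest of all 9, and F4MKO replicate 1 lay within the Flox values, with replicates 2 and 3 above them (log2 fold change -1.24, standard error 0.20, adjusted p = 0.0023). The call held without each library in turn, with log2 fold changes from -1.43 to -1.12 over all 15 alternatives. Against Flox, its log2 fold change was 0.40 in F4MKO (adjusted p = 0.32) and -0.83 in F4MKO + FSTL1 livers (adjusted p = 0.113). The latter difference was called by DESeq2 and without a filter on low counts.

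The other two Cyp3a genes that fell were at far lower levels. Cyp3a16 was at 1.43, 1.06 and 0.799 CPM in the Flox livers, 1.10, 2.18 and 1.80 CPM in the F4MKO livers and 0.374, 0.481 and 0.575 CPM in the F4MKO + FSTL1 livers. Cyp3a16, known from fetal and female liver, was lowest in the F4MKO + FSTL1 livers, without overlap with either group (log2 fold change -1.81, standard error 0.36, adjusted p = 0.00576). The levels of Cyp3a59 were 36.1, 31.5 and 27.0 CPM in Flox, 24.1, 46.2 and 54.3 CPM in F4MKO and 24.4, 11.9 and 25.0 CPM in F4MKO + FSTL1 livers. The lowest F4MKO value of Cyp3a59 lay below the highest value of the F4MKO + FSTL1 group (log2 fold change -1.02, standard error 0.31, adjusted p = 0.0357). Its adjusted p was 0.0506 without Flox replicate 2, 0.0846 and 0.107 without F4MKO replicates 2 and 3, and 0.114 without F4MKO + FSTL1 replicate 2, and it was 0.0535 with DESeq2. Cyp3a13 reached 194, 195 and 177 CPM in Flox livers, compared with 143, 199 and 233 CPM in F4MKO and 172, 181 and 279 CPM in F4MKO + FSTL1 livers. Cyp3a13, the main Cyp3a enzyme of the intestine, overlapped between the groups (log2 fold change 0.14, standard error 0.20, adjusted p = 0.665, and -0.05 under total-count scaling). For Cyp3a44 the 3 Flox livers gave 0.490, 0.410 and 0.710 CPM, the F4MKO livers 0.637, 0.461 and 0.679 CPM and the F4MKO + FSTL1 livers 0.327, 0.433 and 0.366 CPM. Cyp3a44, which is higher in females, was lower in every F4MKO + FSTL1 than in every F4MKO liver but was not called (log2 fold change -0.66, standard error 0.35, adjusted p = 0.207). Cyp3a25 had a log2 fold change of -0.06.

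Cyp2c55 and Cyp1b1 were low, and each was highest in the F4MKO livers. Cyp2c55 was at 2.50, 4.18 and 2.88 CPM in the Flox livers, 6.30, 7.83 and 9.62 CPM in the F4MKO livers and 1.82, 0.961 and 1.51 CPM in the F4MKO + FSTL1 livers. The F4MKO livers held the most and the F4MKO + FSTL1 livers the least of this arachidonic acid hydroxylase, with no overlap (log2 fold change -2.46, standard error 0.28, adjusted p = 0.000905). The levels of Cyp1b1 were 1.65, 2.13 and 2.40 CPM in Flox, 7.29, 4.27 and 4.03 CPM in F4MKO and 1.64, 0.913 and 2.04 CPM in F4MKO + FSTL1 livers. Cyp1b1, an AHR target that oxidizes oestrogens and polycyclic hydrocarbons and is expressed mainly outside hepatocytes, did not overlap between F4MKO and the other groups (log2 fold change -1.77, standard error 0.32, adjusted p = 0.00382). The stellate cell sum had the same order of the groups, with 587 to 773 CPM in F4MKO livers as the highest range, and its part in the Cyp1b1 values was not tested. Both genes were called in all 15 alternatives to the test.

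The other 4 genes varied widely among the F4MKO livers. Cyp2a4 reached 12.8, 5.37 and 2.35 CPM in Flox livers, compared with 37.9, 80.8 and 6.99 CPM in F4MKO and 2.20, 3.03 and 5.12 CPM in F4MKO + FSTL1 livers. Cyp2a4, a steroid hydroxylase that is higher in females, exceeded all F4MKO + FSTL1 values in each F4MKO liver, while Flox overlapped with both groups (log2 fold change -3.61, standard error 0.80, adjusted p = 0.00976). Without F4MKO replicate 2 the log2 fold change was -2.72 (adjusted p = 0.0264). Cyp2a4 shared 4.22% of its windows with Cyp2a5, the coumarin hydroxylase. For Cyp2a5 the 3 Flox livers gave 274, 365 and 730.3 CPM, the F4MKO livers 417, 604 and 519 CPM and the F4MKO + FSTL1 livers 778, 399.7 and 889 CPM. The values of Cyp2a5 overlapped between all groups (log2 fold change 0.42, standard error 0.35, adjusted p = 0.419). Cyp2a12, a bile acid hydroxylase with the highest level per kb of the subfamily, was higher in every F4MKO + FSTL1 than in every F4MKO liver without being called. Cyp2a12 was at 818, 803 and 964 CPM in the Flox livers, 748, 865 and 814 CPM in the F4MKO livers and 985, 909 and 1159 CPM in the F4MKO + FSTL1 livers. The difference was small (log2 fold change 0.33, standard error 0.13, adjusted p = 0.0912).

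The levels of Cyp2a22 were 7.22, 8.93 and 6.21 CPM in Flox, 5.62, 13.7 and 12.3 CPM in F4MKO and 7.38, 4.37 and 4.07 CPM in F4MKO + FSTL1 livers. The values of Cyp2a22 overlapped between F4MKO and F4MKO + FSTL1 livers, with F4MKO replicate 1 among the low ones (log2 fold change -0.99, standard error 0.32, adjusted p = 0.0483). This call was lost in 10 of 15 alternatives. The adjusted p was 0.0602, 0.0579 and 0.0552 without Flox replicates 1, 2 and 3, 0.156 and 0.115 without F4MKO replicates 2 and 3, and 0.158 and 0.134 without F4MKO + FSTL1 replicates 2 and 3. Cyp2b10 reached 1.02, 1.64 and 0.0887 CPM in Flox livers, compared with 1.20, 22.6 and 3.51 CPM in F4MKO and 0.841, 0.336 and 1.04 CPM in F4MKO + FSTL1 livers. Cyp2b10, the classical CAR target, was highest in F4MKO replicate 2, and F4MKO replicate 1 lay within the Flox values (log2 fold change -3.61, standard error 1.03, adjusted p = 0.0297). Without F4MKO replicate 2 the log2 fold change was -1.67 (adjusted p = 0.153), and without F4MKO + FSTL1 replicates 1, 2 and 3 the adjusted p was 0.0732, 0.11 and 0.0587.

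Cyp2c39, a retinoic acid hydroxylase, was called with 1 library far above the rest. For Cyp2c39 the 3 Flox livers gave 1.38, 1.31 and 1.29 CPM, the F4MKO livers 2.23, 177 and 2.04 CPM and the F4MKO + FSTL1 livers 2.48, 1.39 and 0.888 CPM. F4MKO replicate 2, with 4221 counts against 63 and 51 in replicates 1 and 3, stood 71.4-fold above the next library. F4MKO replicates 1 and 3 lay above the 3 Flox livers and within the range of the F4MKO + FSTL1 livers. The fitted change (log2 fold change -5.22, standard error 1.51, adjusted p = 0.0312) was -0.42 without this library (adjusted p = 0.466). Without F4MKO + FSTL1 replicates 1, 2 and 3 its adjusted p was 0.0715, 0.107 and 0.0834, and in a fit of the 6 libraries compared it was 0.0596.

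**Figure D3:**
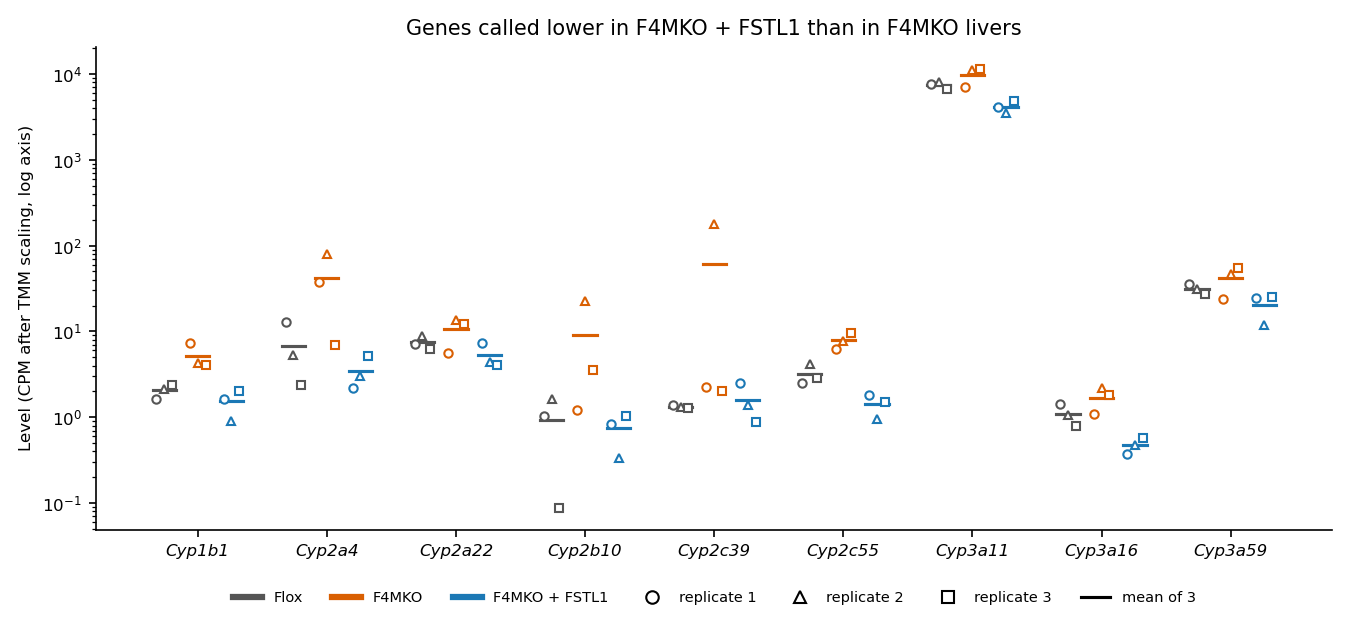
Level in each library (y axis, CPM on a log axis) of the 9 genes that fell in the FSTL1 comparison, with 1 point per mouse and a line at the mean of 3. Orange F4MKO and blue F4MKO + FSTL1 points are separated for 6 of the 9 genes, Cyp3a11, Cyp3a16, Cyp2c55, Cyp1b1, Cyp2a4 and Cyp2b10, and for Cyp2c39 a single F4MKO point at 177 CPM stands apart from values up to 2.48 CPM.

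F4MKO replicate 2 also stood apart for genes that were not called. Cyp2b9 was at 0.357, 0.205 and 0.0887 CPM in the Flox livers, 0.460, 3.85 and 0.120 CPM in the F4MKO livers and 0.0935, 0.433 and 0.470 CPM in the F4MKO + FSTL1 livers. Cyp2b9, which is higher in females, stood 8.20-fold above the next library in this liver, and the FSTL1 comparison gave -2.13 (adjusted p = 0.158), 0.14 without it and -2.67 (adjusted p = 0.0438) without F4MKO replicate 3. Cyp2c38, an arachidonic acid epoxygenase, was at 73.7, 174 and 59.8 CPM in the F4MKO livers and at most 71.8 CPM elsewhere, and its log2 fold change of -0.75 became -0.13 without F4MKO replicate 2 and passed the test without replicate 3 (-1.03, adjusted p = 0.032). This library was the highest of 9 for 10 of the 44 genes and the lowest for 8. F4MKO replicate 1 was the lowest for 13 of 44 and the highest for 1, beside its low hepatocyte marker sum. The median SD of log2 levels over 3 libraries was 0.20 in Flox, 0.34 in F4MKO and 0.31 in F4MKO + FSTL1 livers.

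**Figure D4:**
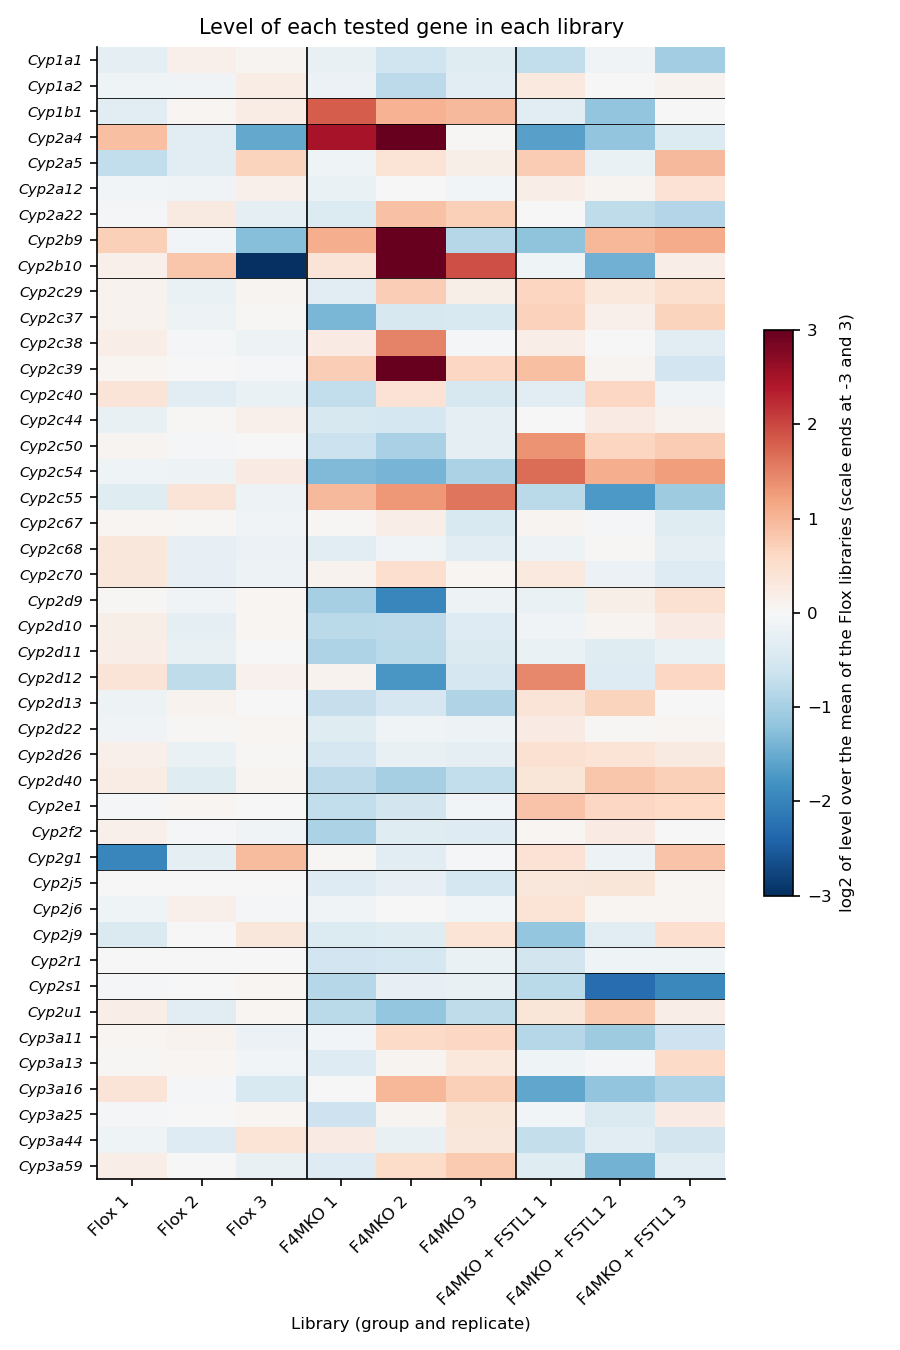
Level of each of the 44 tested genes (rows, by subfamily) in each of the 9 libraries (columns), as log2 of the level over the mean of the 3 Flox libraries, red above and blue below, with the color scale ending at -3 and 3. The rows of Cyp2d are mostly blue in F4MKO columns, and Cyp2a4, Cyp2b9, Cyp2b10 and Cyp2c39 are darkest red in the column of F4MKO replicate 2.

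In the knockout comparison Cyp2c54 alone was called, at 30.2 ± 5.05 CPM (SD, n = 3) in F4MKO compared with 69.9 ± 11.2 CPM (n = 3) in Flox livers (log2 fold change -1.21, standard error 0.18, adjusted p = 0.0351). Its adjusted p equalled the smallest of all genes tested, a value that other genes shared, and by unadjusted p it ranked 8. Without Flox replicates 1, 2 and 3 the adjusted p was 0.132, 0.0656 and 0.107. Without F4MKO replicates 1 and 2 it was 0.148 and 0.0556. The groups did not overlap for 21 of the 44 genes, 18 lower and 3 higher in F4MKO, beside 21.8% of all genes (10% lower and 11.7% higher). The 18 included 7 of the 8 tested Cyp2d genes, and the 3 higher were Cyp1b1, Cyp2c39 and Cyp2c55. None of these separations was called in this edgeR fit other than that of Cyp2c54. DESeq2 also called Cyp1b1, Cyp2c37, Cyp2c55, Cyp2d10, Cyp2d13, Cyp2d40 and Cyp2u1, which did not overlap. Without a filter on low counts edgeR called these and, of the genes without overlap, also Cyp2c39, Cyp2c50 and Cyp2d9.

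The genes next to the threshold in this comparison were Cyp2c55 (log2 fold change 1.31, adjusted p = 0.0605), Cyp2d40 (-0.84, 0.061), Cyp2u1 (-0.90, 0.0694), Cyp1b1 (1.34, 0.0723) and Cyp2d13 (-0.69, 0.0859). The largest log2 fold changes were those of Cyp2c39 (5.50), Cyp2b10 (3.28) and Cyp2b9 (2.72), with adjusted p-values of 0.12, 0.144 and 0.233, and without F4MKO replicate 2 they were 0.68, 1.33 and 0.44. Cyp2a4 (2.62, adjusted p = 0.123) was called without F4MKO replicate 3 (3.12, adjusted p = 0.042). With DESeq2 8 of 46 P450 genes were called, beside 2.23% of all genes. With edgeR without a filter on low counts 14 of 54 were called, beside 1.99% of all genes. Both counts include Cyp2c54, and the latter also includes Cyp2c39, Cyp2b10, Cyp2b9 and Cyp2a4.

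In the third comparison, F4MKO + FSTL1 against Flox, Cyp2c54 came closest to a call (log2 fold change 1.36, standard error 0.17, adjusted p = 0.0514). It was called without Flox replicate 3 (adjusted p = 0.032), F4MKO replicate 2 (0.0371) or F4MKO + FSTL1 replicate 3 (0.0295). The groups did not overlap in 14 of the 44 genes, 8 higher and 6 lower, and in 18.2% of all genes, 7.44% higher and 10.7% lower. After Cyp2c54 the largest positive values were those of Cyp2c50 (0.95) and Cyp2d12 (0.75). The largest negative ones were those of Cyp2s1 (-1.51), Cyp3a16 (-1.20) and Cyp2c55 (-1.15). None of them was called in this edgeR fit. DESeq2, and edgeR without a filter on low counts, each called Cyp2c50, Cyp2c54, Cyp2c55, Cyp2d40, Cyp2e1, Cyp2s1 and Cyp3a11. The levels of Cyp2s1 were 1.34, 1.39 and 1.46 CPM in Flox, 0.778, 1.17 and 1.20 CPM in F4MKO and 0.794, 0.288 and 0.366 CPM in F4MKO + FSTL1 livers. Cyp2s1 is expressed mainly in epithelia outside the liver, and its F4MKO + FSTL1 and F4MKO values overlapped through replicate 1 of each. In the FSTL1 comparison it had -1.09 (adjusted p = 0.0569), and was called without F4MKO + FSTL1 replicate 1 (-1.66, adjusted p = 0.0168).

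Of the 11 genes that rose in the FSTL1 comparison, all 11 had a log2 fold change above 0 against Flox, and of the 9 that fell, 8 had one below 0, the exception being Cyp2c39. Against Flox, all 11 had a negative log2 fold change in F4MKO livers and all 9 a positive one. Both statements use the F4MKO or F4MKO + FSTL1 libraries that also made the calls, so they are a description.

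Sums over a subfamily are led by its abundant genes and were not tested. The Cyp2d sum reached 3955, 3348 and 3870 CPM in Flox livers, compared with 2235, 2154 and 3071 CPM in F4MKO and 4014, 4435 and 4643 CPM in F4MKO + FSTL1 livers. The F4MKO livers were below the other groups without overlap. For the Cyp3a sum the 3 Flox livers gave 8575, 8863 and 7472 CPM, the F4MKO livers 7656, 11952 and 12547 CPM and the F4MKO + FSTL1 livers 4953, 4217 and 5901 CPM. The F4MKO + FSTL1 livers were the lowest. The ratio of F4MKO + FSTL1 to F4MKO means was 1.75 for Cyp2d, 0.468 for Cyp3a, 1.32 for Cyp2c and 1.25 for Cyp2a. The Cyp2b sum was at 1.38, 1.84 and 0.177 CPM in the Flox livers, 1.70, 26.6 and 3.63 CPM in the F4MKO livers and 0.934, 0.817 and 1.51 CPM in the F4MKO + FSTL1 livers. Cyp2b was led in the F4MKO group by replicate 2. Over all 54 genes the sum was 25035 to 25739 CPM in Flox, 18795 to 27817 in F4MKO and 26951 to 30058 in F4MKO + FSTL1 livers, so that the total of the families overlapped between F4MKO and both other groups while single subfamilies went in different directions.

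**Figure D5:**
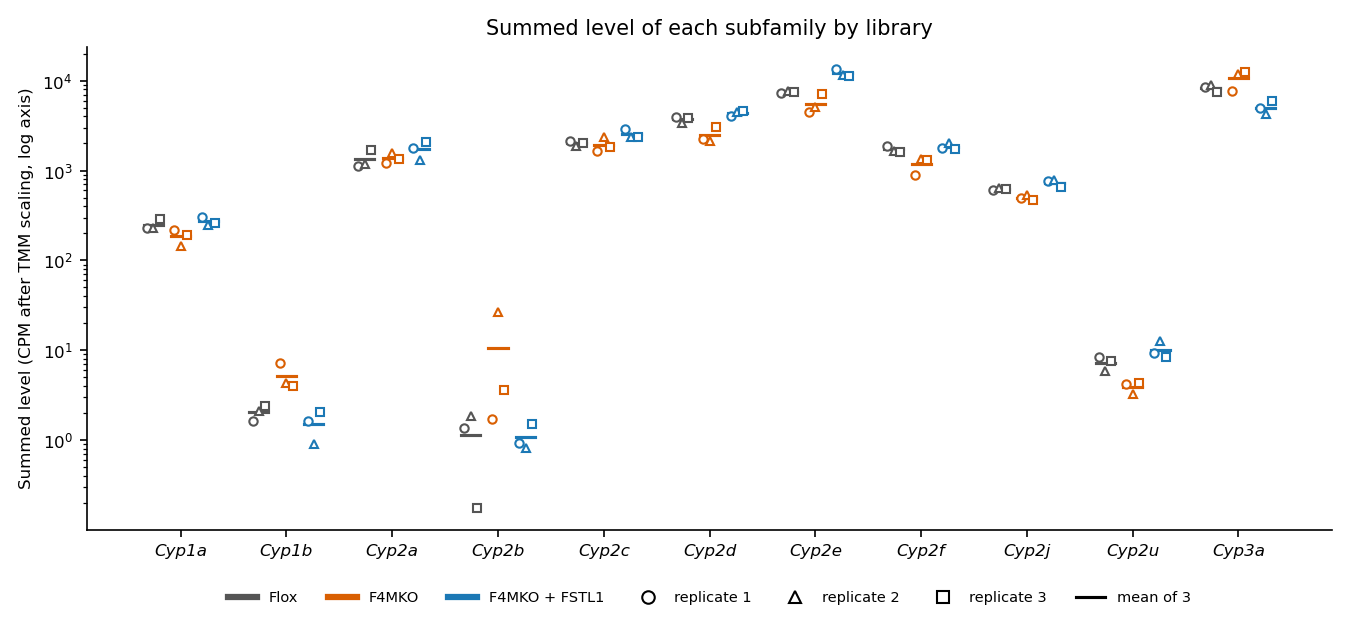
Summed level of the genes of 11 subfamilies in each library (y axis, CPM on a log axis, not corrected for length), with 1 point per mouse and a line at the mean of 3. Cyp2d, Cyp2e and Cyp2u are lowest in the F4MKO livers, Cyp3a is lowest in the F4MKO + FSTL1 livers, and Cyp2b has 1 high F4MKO point at 26.6 CPM.

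Groups of P450 genes defined by their known regulation held genes of both directions or few calls in the FSTL1 comparison. In that comparison 3.21% of all genes were called higher and 11.2% lower. Of 6 CAR and PXR target genes 3 fell (Cyp2b10, Cyp2c55 and Cyp3a11), 1 rose (Cyp2c37), and Cyp2c29 and Cyp3a13 were not called. Of 3 AHR target genes Cyp1b1 fell. The levels of Cyp1a2 were 225, 228 and 285 CPM in Flox, 217, 143 and 193 CPM in F4MKO and 301, 249.6 and 263 CPM in F4MKO + FSTL1 livers. Cyp1a2, which oxidizes caffeine, was lowest in the F4MKO livers, and passed the p threshold with a fold change below 1.5 (log2 fold change 0.56, standard error 0.16, adjusted p = 0.0292). It was called without F4MKO replicate 1 (0.69, adjusted p = 0.0249), F4MKO replicate 3 (0.59, adjusted p = 0.0462) or F4MKO + FSTL1 replicate 3 (0.59, adjusted p = 0.0455). Cyp1a1 reached 1.16, 1.56 and 1.46 CPM in Flox livers, compared with 1.20, 0.921 and 1.08 CPM in F4MKO and 0.841, 1.30 and 0.679 CPM in F4MKO + FSTL1 livers. Cyp1a1, the classical AHR target, overlapped between the groups (log2 fold change -0.18, standard error 0.29, adjusted p = 0.694).

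Of 5 tested genes that are higher in females, Cyp2a4 and Cyp3a16 fell, beside 11.2% of all genes. Cyp2b9, Cyp2c40 and Cyp3a44 were not called, and Cyp2b13 and Cyp2c69 had too few counts. The 7 together summed to 16.8, 8.11 and 5.24 CPM in Flox, 41.0, 89.1 and 10.5 CPM in F4MKO and 4.16, 6.58 and 7.78 CPM in F4MKO + FSTL1 livers, with F4MKO replicate 2 the highest. Of 4 P450 genes that are higher in males, which include Cyp2d9 and 3 genes of other families, Cyp7b1, an oxysterol hydroxylase, rose (log2 fold change 1.76, adjusted p = 0.0121), and the other 3 had positive values that were not called. Their sum was 2114, 1919 and 1902 CPM in Flox, 1257, 645 and 1674 CPM in F4MKO and 1823, 2421 and 2469 CPM in F4MKO + FSTL1 livers, with F4MKO replicate 2 the lowest. All mice were male, and every library had counts of the Y-linked genes of the list, with at most 3 counts of Xist.

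By place in the lobule, 4 of 8 pericentral genes rose (Cyp2c37, Cyp2c50, Cyp2c54 and Cyp2e1) and 1 fell (Cyp3a11). Cyp1a2, Cyp2a5 and Cyp2c29 were not called, and the single periportal gene of the list, Cyp2f2, rose. Of all genes 3.21% were called higher and 11.2% lower. Outside the families, 2 of 10 pericentral genes rose, Oat (0.78, adjusted p = 0.0406) and Rhbg (0.90, adjusted p = 0.0316), and 0 of 10 periportal genes were called by edgeR. At an unadjusted p under 0.05, 1 of the periportal genes passed, beside 35.3% of all genes. The list of genes expressed mainly outside hepatocytes or of orphan function had 5 tested genes (Cyp1b1, Cyp2g1, Cyp2r1, Cyp2s1 and Cyp2u1). Of these Cyp2u1 rose and Cyp1b1 fell. Cyp2r1 is a vitamin D hydroxylase, so it is not of orphan function.

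In the FSTL1 comparison 3.21% of all genes were called higher and 11.2% lower. Among the receptors and transcription factors that control P450 genes, 5 of 26 tested rose and 0 fell. They were Nr1i3, which encodes CAR (log2 fold change 0.85, adjusted p = 0.0221), Cebpa, a hepatocyte differentiation factor (0.66, adjusted p = 0.00823), and the clock output factors Dbp (1.28, adjusted p = 0.0336), Tef (0.89, adjusted p = 0.00847) and Hlf (0.68, adjusted p = 0.0127). Nr1i2, which encodes PXR, stood at 0.04 on the log2 scale (adjusted p = 0.892), Ahr at -0.41 (adjusted p = 0.163) and Hnf4a at 0.06 (adjusted p = 0.774). In the knockout comparison 0 of the 26 were called by edgeR, beside 0.271% of all genes. At an unadjusted p under 0.05 there were 4, beside 16.9% of all genes. Of the 6 electron donors and partners 0 were called in the FSTL1 comparison, with log2 fold changes from 0.07 for Por to 0.36 for Cyb5a. At an unadjusted p under 0.05 there were 3 of 6, beside 35.3% of all genes. Of the 8 genes of haem synthesis 0 were called (2 at an unadjusted p under 0.05), and of the 4 of haem breakdown Hmox1 fell (-0.65, adjusted p = 0.0204). The other P450 families had 26 tested genes. Of these 3 rose and 3 fell in the FSTL1 comparison, beside 3.21% and 11.2% of all genes. In the knockout comparison 0 were called by edgeR, beside 0.271% of all genes.

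The 10 genes that the filter on low counts left out of the test were Cyp2b13, Cyp2b19, Cyp2c65, Cyp2c66, Cyp2c69, Cyp2d34, Cyp2j8, Cyp2t4, Cyp2w1 and Cyp3a57. Their totals over 9 libraries ran from 1 count for Cyp2b19 and Cyp2c66 to 53 for Cyp2t4. Without this filter edgeR tested all 54 genes and did not call any of these in any comparison. At so few counts, the lack of a call does not show that they were equal. The tested genes without a description so far are Cyp2c40, Cyp2g1, Cyp2j6, Cyp2j9 and Cyp2r1. In the FSTL1 comparison their log2 fold changes ran from -0.10 for Cyp2j9 to 0.53 for Cyp2g1, with adjusted p-values of at least 0.135. For Cyp2c40 the 3 Flox livers gave 1.47, 0.901 and 0.976 CPM, the F4MKO livers 0.672, 1.51 and 0.798 CPM and the F4MKO + FSTL1 livers 0.888, 1.73 and 1.04 CPM. Cyp2g1 was at 0.178, 0.574 and 1.33 CPM in the Flox livers, 0.707, 0.544 and 0.679 CPM in the F4MKO livers and 0.934, 0.625 and 1.25 CPM in the F4MKO + FSTL1 livers. Both were low in every library, and their groups overlapped. The levels of Cyp2r1 were 13.4, 13.2 and 13.2 CPM in Flox, 8.98, 9.21 and 11.5 CPM in F4MKO and 9.02, 12.2 and 12.1 CPM in F4MKO + FSTL1 livers. Cyp2r1, a vitamin D hydroxylase, was lower in every F4MKO than in every Flox liver (log2 fold change -0.42, standard error 0.14, adjusted p = 0.175), and had 0.16 in the FSTL1 comparison, or -0.03 under total-count scaling. Of 53 genes with a transcript, 20 shared at least 1 window of 150 bases with another gene, most of all Cyp2c40 (29.1%), Cyp2c69 (22.5%) and Cyp2c67 (13.0%), whose counts are uncertain for this reason.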

How the data were processed

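Liver RNA of 9 mice, 3 in each of 3 groups, was sequenced as paired reads of 150 bases. According to the submitters' processing notes, the authors trimmed reads with Trim Galore 0.6.7, aligned them to mm10 with HISAT2 2.2.1 and counted reads per gene with featureCounts 2.0.1, and the deposited table holds raw counts. The gene annotation, the strand setting and the treatment of reads with several matches are not given in the sources used here. Groups were taken from the sample labels. P-values compare the difference between group means with the spread between mice within groups, estimated over all 9 libraries.

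Counts were analysed in edgeR 4.0.16 (R 4.3.3) with TMM factors (0.927 to 1.17) and the quasi-likelihood test, with 1 mean per group and all 9 libraries in 1 fit. Genes were kept by filterByExpr with a minimum count of 10 and a total of 15, which left 14379 of 24008. P-values were adjusted by Benjamini-Hochberg over all 14379, and a call required an adjusted p under 0.05 and a fold change above 1.5. The standard error is the log2 fold change divided by the root of the F statistic. The total of at least 20656976 counts per library makes 3 counts worth 0.106 to 0.157 CPM. Lengths came from GENCODE vM21, in which 52 genes matched by symbol and 1 by synonym, and promoters from RefSeq. Alternatives were DESeq2 1.42.0, its size factors in edgeR, total counts alone, no filter on low counts, the 6 libraries compared, a replicate block, no fold threshold, and each library left out.

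The P450 genes and the gene lists were chosen with earlier results of these data known. Values in every library were given for called genes, the 3 largest log2 fold changes in each direction, the gene with the highest level per length in a subfamily and the listed genes. The pattern of the symbol left out 5 rows of the families: Cyp2d37-ps, a pseudogene with 723 to 1351 counts, Cyp2ab1, Cyp2c53-ps and Cyp3a41a with at most 7 counts, and Cyp3a41b with 3 to 32 counts.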

Additional observations from a re-analysis of the deposited data

How the results depend on the processing

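In the FSTL1 comparison the number of P450 genes called, 20 of 44, ranged from 17 to 24 over the other settings (9.98% to 20.9% of all genes). When 1 library was left out it ranged from 15 to 22 (8.83% to 15.2% of all genes). Of the 20, 12 were called in all 15 alternatives. In the knockout comparison 1 gene was called (0.271% of all genes). There were 8 with DESeq2 (2.23% of all genes), 14 without a filter on low counts (1.99%) and 2 with total counts only (0.41%). With 1 library left out there were 0 to 2 (0% to 0.685% of all genes). In F4MKO + FSTL1 against Flox 0 were called (0.00695% of all genes), against 7 with DESeq2 (2%) and 7 without a filter on low counts (1.58%). There was 1 with DESeq2 size factors in edgeR (0.0139%) and 1 with total counts only (0.0139%). With 1 library left out there were 0 to 1 (0% to 0.688% of all genes). The cause of these differences between settings was not tested. No log2 fold change of a called gene changed sign. Of the tests of called genes under other settings 114 kept and 12 lost the call, and with 1 library left out 162 kept and 27 lost it.

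Same-numbered replicates did not deviate together in every pair (correlations from -0.0985 to 0.304). In the FSTL1 comparison, however, every library correlated best with its own number. Whether the numbers pair the mice cannot be told from these correlations. With the replicate number as a block, 2, 20 and 1 genes were called in the knockout comparison, the FSTL1 comparison and F4MKO + FSTL1 against Flox, beside 0.932%, 15.1% and 0.104% of all genes. The 20 were 13 higher and 7 lower, in place of 11 and 9, with Cyp2d9 (log2 fold change 1.14, adjusted p = 0.0194) and Cyp2d12 (1.26, adjusted p = 0.00762) gained and Cyp2a22 and Cyp2c39 lost. The low-count genes Cyp2b9, Cyp2b10, Cyp2c39 and Cyp3a16 rest on few counts in most libraries, and the filter on low counts left 10 genes of the families untested.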
